A study of Mus musculus with 10 samples.

Results

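The wild type digit tip blastema of the mouse was described from 12 to 14 days post amputation (dpa). These libraries were chosen by title, as the pair labelled wild type at 14 dpa and the pair labelled wild type at 12 dpa, and make up 4 of the 10 libraries of the series. RNA was sequenced from dissected tissue at the ends of amputated digits, and each library pooled 6 central hindlimb digits. The animals were of mixed CD1 and C57Bl/6 background, 33 days old at 12 dpa and 35 days old at 14 dpa, and the wild type animals carried no engineered allele that the labels name. The other 6 libraries, 3 on each day at the same ages and on the same background, came from ΔLARM1/2 mice, which lack limb enhancers of Lmx1b, and were used here to estimate the spread between libraries and to compare the change between the days. The series calls its replicates biological, but no label says whether 2 libraries came from different animals, so the p-values below measure only the spread between libraries.

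A mouse digit tip cut through its last bone grows back by way of a blastema, a mass of proliferating connective tissue cells under a wound epidermis. Its cells come from the tissues of the digit, lay down matrix and form new bone, while osteoclasts remodel the stump, vessels and nerves grow in and the nail, whose matrix cells make hard keratins, keeps growing above it. Regeneration of the tip depends on the nail epithelium and on Wnt signalling there.

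Total expected counts were 74640170 and 75739468 in the 12 dpa libraries and 69998104 and 85838038 in the 14 dpa libraries, numbered 1 and 2 as in the titles. The share of counts from the mitochondrial genome's mRNAs lay between 0.704% and 0.865%. Genes of the deposited protein-coding table took 89.8% and 91.0% of counts at 12 dpa and 81.5% and 87.7% at 14 dpa. By Xist and Y-linked counts, each day had 1 female and 1 male library. Log2 CPM of the pair of libraries correlated across genes with r = 0.978 on each day, a value across genes, which are not independent replicates.

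The dissected tissue held nail and epidermis together with blastema mesenchyme. Of all counts, the 14 nail and hair keratins took 2.65% to 6.18% in the 4 libraries and the keratin-associated proteins, which fill the matrix between hard keratin filaments, took 1.59% to 4.42%. Keratins and other genes of suprabasal and cornified epidermis took 5.47% to 8.24%, and those of basal and wound keratinocytes 3.31% to 4.77%. The list of blastema and dermal fibroblast genes took 2.41% to 3.71%. This share includes the abundant Lrrc15, whose levels in the 4 libraries stood in the same order as those of the hard keratin Krt83, as given below. The list's transcription factor Prrx1, a marker of limb mesenchyme, had 114 and 105 CPM (counts scaled to a common library size, with TMM factors) at 12 dpa and 112 and 90.6 CPM at 14 dpa. Pdgfra, a receptor that marks fibroblasts, had 55 and 45.2 CPM at 12 dpa and 61.0 and 51.1 CPM at 14 dpa. Both markers were thus present, with days that overlapped. Skeletal muscle genes were low, at 0.00111% to 0.00141% of counts, and melanocyte genes took 0.00295% to 0.00605%. Of 11 tested melanocyte genes 3 were higher and 0 lower in both 14 dpa libraries, where 20.1% of all tested genes were higher and 22.4% lower. Their median log2 fold change was -0.11, and 0 had an unadjusted p under 0.05 in the edgeR test. The melanocyte enzyme gene Tyr had no count in any of the 4 libraries, where a floor of 3 counts over a pair of libraries is 0.0204 CPM at 12 dpa and 0.0181 CPM at 14 dpa.

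Ranked by TPM (a transcript level scaled by gene length and by the total of its library), the most abundant protein-coding messages were epidermal and nail keratins. Of the 25 genes of highest mean TPM, 10 were keratins by symbol (Krt), 8 were keratin-associated proteins by symbol (Krtap) and 2 were mitochondrially encoded. Gm10228, Gm10229 and 1110025L11Rik, also among the 25, have symbols that name no family and were not assigned to a class. Krt10, a keratin of suprabasal epidermis, was first, at 7775 and 4608 TPM in the 12 dpa libraries and 6134 and 6553 TPM in the 14 dpa libraries. Krt1, its partner in the same filaments, was second, at 5962 and 3908 TPM and then 5211 and 4634 TPM. Krt10 was above Krt1 in every library, and neither separated the days. In the second 12 dpa library 10 of the 25 genes were above Krt10, led by Krtap7-1, whereas in the other 3 libraries 0 were. Krtap7-1, a keratin-associated protein of the nail and hair shaft, came next, at 3939 and 8496 TPM at 12 dpa and 1763 and 2119 TPM at 14 dpa. Krt16, a keratin of wound and nail bed epidermis, had 4685 and 4524 TPM at 12 dpa and 2853 and 2093 TPM at 14 dpa. Krtap7-1 and Krt16 were lower in both 14 dpa libraries than in either 12 dpa library, on a scale that other RNA also moves. As a share of the TPM of protein-coding genes, Krt16 overlapped between the days, with 1.11% and 0.914% at 12 dpa and 1.03% and 0.624% at 14 dpa. Krtap7-1 stayed lower on that share, with 0.930% and 1.72% and then 0.637% and 0.631%. Together the 25 genes held 19.7% and 23.1% of the TPM of protein-coding genes at 12 dpa and 17.7% and 15.6% at 14 dpa. Because TPM is a share, these values move with other RNA: the 2 most abundant genes of all, which have no name in the tables used, held 33.9% and 30.5% of TPM at 12 dpa and 43.9% and 39.0% at 14 dpa. For that reason TPM was used to rank genes, and CPM to compare the days.

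**Figure D1:**
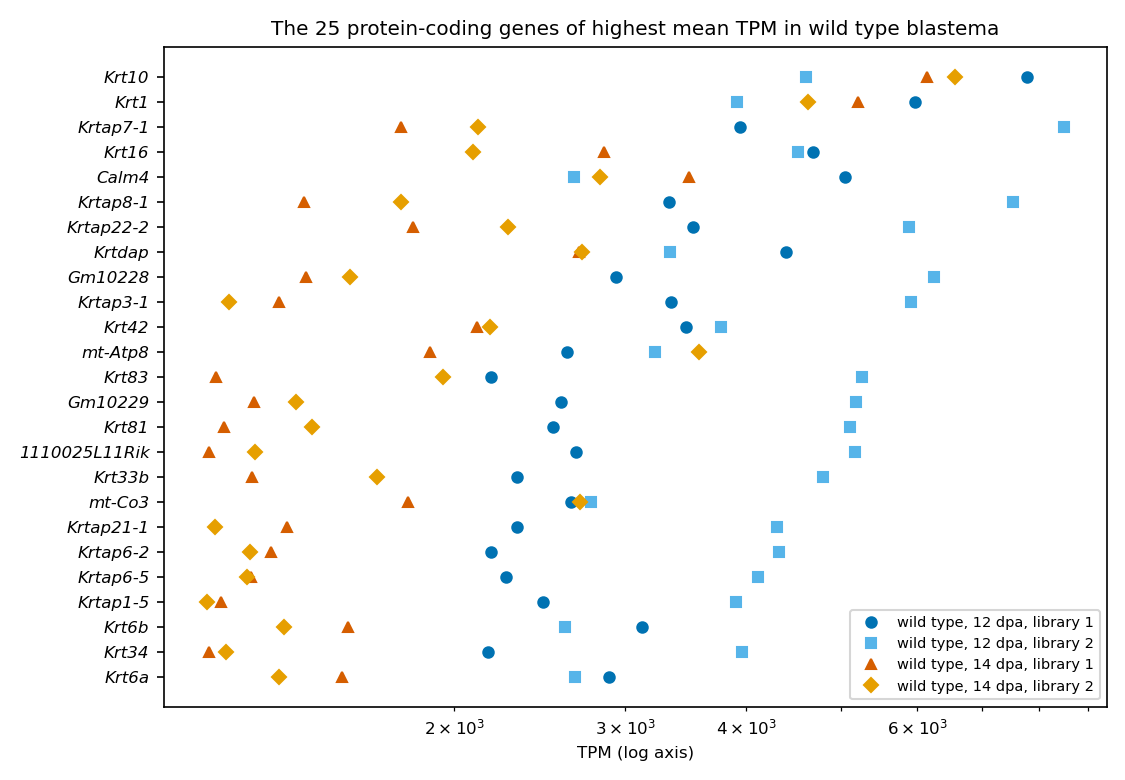
TPM (log axis) of the 25 protein-coding genes of highest mean TPM, 1 row a gene, with a point for each of the 4 wild type libraries. Krt10 leads in 3 of the 4 libraries, and the 12 dpa libraries differ from each other for the nail genes (Krtap7-1 at 3939 and 8496 TPM). On TPM, a scale that other RNA also moves, most nail genes lie lower in both 14 dpa libraries. As a share of the TPM of protein-coding genes, Krt83 overlaps between the days and Krtap7-1 does not.

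Between 12 and 14 dpa no gene passed the test in wild type tissue. Of 20216 genes tested with edgeR's quasi-likelihood test, 0 (0.0%) had an adjusted p under 0.05, and the smallest adjusted p was 0.0934. At an unadjusted p under 0.05 there were 1654 genes (8.18%), of which 661 (3.27%) were higher and 993 (4.91%) lower at 14 dpa. DESeq2 on the same counts called 77 genes (0.381%), 37 higher and 40 lower, of which 11 were processed pseudogenes and 53 were in the protein-coding table. Both 14 dpa libraries lay above both 12 dpa libraries for 4066 genes (20.1%) and below both for 4519 (22.4%), and these shares are the background for every such count below. On log2(TPM + 1) and log2(TPM + 0.1) the median of all genes was -0.31 and -0.38, on TPM rescaled to protein-coding genes 0.17, and on the CPM scale used here -0.01. Relative to that median, 19 of 44 gene lists kept their sign under every alternative tried, among them nail keratins, keratin-associated proteins, basal keratinocytes, osteoclasts, collagens, histones, ribosomal proteins, endoplasmic reticulum genes and mitochondrial mRNA. The values that follow are therefore differences between libraries, given with their p, and none of them is called a change by the edgeR test.

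The smallest p-values of protein-coding genes came from genes of varied function. Cdv3, a widely expressed gene, had 160 and 205 CPM at 12 dpa and 98.0 and 100 CPM at 14 dpa. Its 14 dpa libraries were close to each other and well below both 12 dpa libraries, with a log2 fold change of -0.88 (SE 0.13, edgeR adjusted p = 0.468). Hspa5, which encodes BiP, the main chaperone of the endoplasmic reticulum, had 577 and 588 CPM at 12 dpa and 312 and 335 CPM at 14 dpa. The pairs did not overlap, and the log2 fold change was -0.85 (SE 0.14, edgeR adjusted p = 0.533). Srf, the serum response factor, which drives cytoskeletal and immediate early genes, was at 34.8 and 40.1 CPM at 12 dpa and at 22.8 and 21.2 CPM. Filip1l, a regulator of cell migration, was at 90.1 and 95.9 CPM and then at 60.7 and 58.0 CPM. Both were lower in each 14 dpa library, with log2 fold changes of -0.77 (SE 0.15) and -0.65 (SE 0.13). Sprr2h, a small proline-rich protein of the cornified envelope, showed a larger difference, from 95.0 and 157 CPM to 25 and 27.4 CPM. Its log2 fold change was -2.27 (SE 0.43). Epcam, an adhesion molecule of epithelial cells, had 61.2 and 44.3 CPM at 12 dpa and 28 and 29.4 CPM at 14 dpa, a log2 fold change of -0.88 (SE 0.18). Also among the 10 smallest p-values on the lower side were 1700021K19Rik, Nat6 (-0.85), Rpl29 (-1.76) and Cryaa (-3.53), the last a lens crystallin gene with at most 0.558 CPM in any library.

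Among the 10 on the higher side, Txnip, an inhibitor of thioredoxin and of glucose uptake, had 68.4 and 76.9 CPM at 12 dpa and 125 and 138 CPM at 14 dpa. Both 14 dpa libraries were above both 12 dpa libraries, with a log2 fold change of 0.85 (SE 0.16, edgeR adjusted p = 0.533). Zbtb16, a zinc finger transcription factor needed for limb skeletal patterning and responsive to glucocorticoids, had 3.98 and 2.5 CPM and then 19.8 and 17.2 CPM. That is a log2 fold change of 2.51 (SE 0.50), at a low level on both days. Mt4, a metallothionein of stratified epithelium, had 265 and 243 CPM and then 370 and 576 CPM, so the 14 dpa libraries differed from each other by more than the 12 dpa libraries did. Atp2a3, a calcium pump of the endoplasmic reticulum, had 1.62 and 2.19 CPM and then 7.32 and 4.29 CPM. The log2 fold changes of Mt4 and Atp2a3 were 0.89 (SE 0.21) and 1.61 (SE 0.37). Ptbp2, a splicing regulator, Rps6ka5, a kinase that phosphorylates histone H3, and the ubiquitin ligase components Siah1a and Spopl were higher by 0.72, 0.57, 0.53 and 0.53 on the log2 scale. Ltf, a granule protein of neutrophils, had no count in either 12 dpa library and 0.336 and 1.54 CPM at 14 dpa, which is at least 50.9-fold higher against a floor of 3 counts over the 12 dpa libraries. All 20 of these genes separated the days without overlap, which the choice by p favours, their adjusted p ran from 0.468 to 0.533, and DESeq2 called 17 of them.

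**Figure D2:**
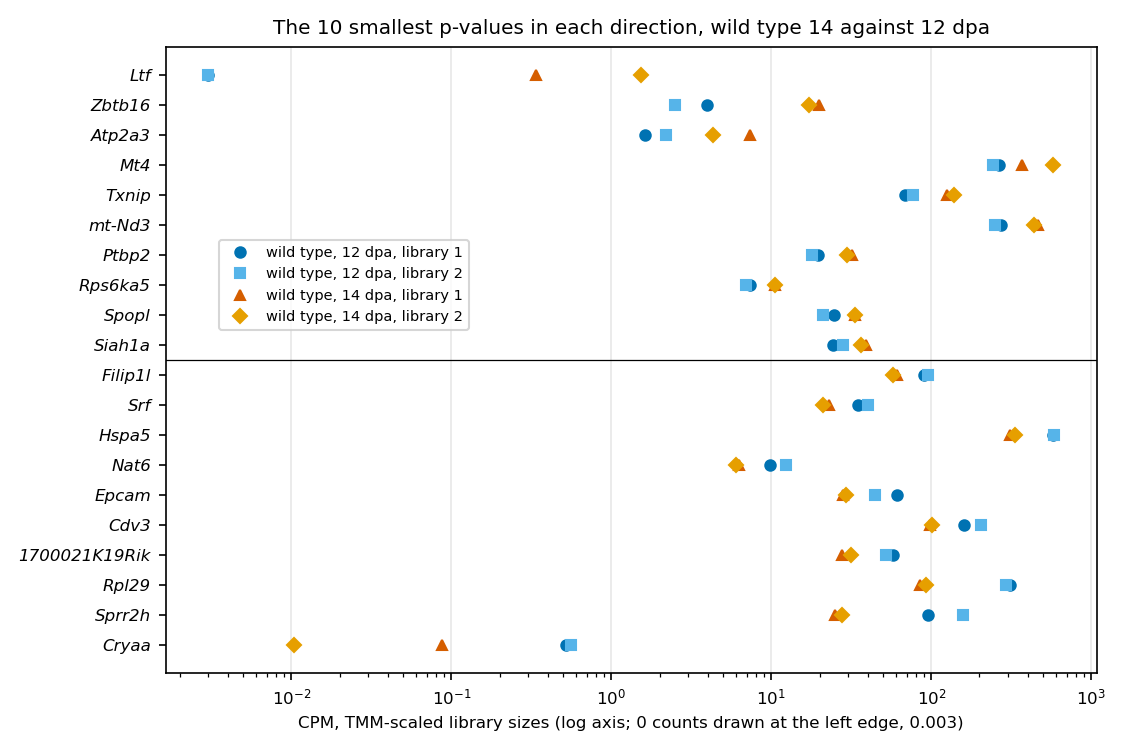
CPM on TMM-scaled library sizes (log axis) in each wild type library for the 10 smallest p-values on the higher side (above the line) and the 10 on the lower side (below it). The pairs of libraries do not overlap for any of the 20 genes, yet no adjusted p is below 0.468.

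Genes of protein folding in the endoplasmic reticulum, where secreted matrix proteins are folded, were mostly lower at 14 dpa. Of 29 tested chaperones and stress genes, 0 passed the edgeR test, 20 were lower and 1 higher in both 14 dpa libraries, and 6 had an unadjusted p under 0.05, all 6 lower. Their median log2 fold change was -0.30, against -0.01 over all tested genes, and 0.01 on TPM rescaled to protein-coding genes, where the median of all genes was 0.17. Besides Hspa5, the smallest p-values were those of Manf and Creld2, secreted and resident proteins that are induced when unfolded proteins accumulate. Manf had 49.1 and 54.1 CPM at 12 dpa and 37.1 and 38 CPM at 14 dpa, and Creld2 had 15.5 and 16.3 CPM and then 9.64 and 10.8 CPM. Their pairs did not overlap, and the log2 fold changes were -0.46 (SE 0.14) for Manf and -0.64 (SE 0.19) for Creld2, with an edgeR adjusted p of 0.575 for each. Among the most abundant members, the lectin chaperone Calr had 481 and 506 CPM at 12 dpa and 442 and 411 CPM at 14 dpa. P4hb, a disulfide isomerase and subunit of collagen prolyl hydroxylase, had 489 and 554 CPM and then 538 and 477 CPM, so its days overlapped. The member that was higher in both 14 dpa libraries was Sec61b, a subunit of the translocation channel, with 21.4 and 19.1 CPM and then 34.2 and 24 CPM.

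Many stress-induced genes of this kind carry a promoter element, the endoplasmic reticulum stress element, which is bound by ATF6 with NF-Y and is known from Hspa5. It was searched as CCAAT, then 9 bases of any kind, then CCACG, on both strands in the 250 bases before each RefSeq transcript start (mouse build GRCm38.p6). Matches were found for 7 of the 24 list genes with a promoter in that table, against 35 of 27025 genes (0.13%) over the whole table, where the list was made of known stress genes and so is no independent sample. The matches are shown because they are the sequence that these members have in common; capitals mark the 19 bases of the motif, and 5 bases stand on each side.
Hspa5, chr2:34772020-34772048, plus strand: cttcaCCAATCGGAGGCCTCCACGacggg
Creld2, chr15:88819515-88819543, minus strand: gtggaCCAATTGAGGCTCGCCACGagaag
Hsp90b1, chr10:86705633-86705661, minus strand: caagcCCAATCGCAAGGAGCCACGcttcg
Hsp90b1, chr10:86705528-86705556, plus strand: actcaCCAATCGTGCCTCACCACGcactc
Dnajc3, chr14:118937822-118937850, plus strand: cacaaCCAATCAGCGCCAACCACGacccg
Calr, chr8:84847070-84847098, plus strand: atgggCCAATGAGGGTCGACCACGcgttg
Pdia6, chr12:17266486-17266514, plus strand: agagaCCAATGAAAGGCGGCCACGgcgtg
Canx, chr11:50325795-50325823, minus strand: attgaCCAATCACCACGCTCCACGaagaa
Of the 7 genes, 6 were lower in both 14 dpa libraries and Canx overlapped between the days. Their log2 fold changes ran from Hspa5 (-0.85) and Creld2 (-0.64) through Hsp90b1 (-0.36), Dnajc3 (-0.26), Calr (-0.21) and Pdia6 (-0.20) to Canx (-0.05). Among list genes in the promoter table, the motif was found for 6 of the 15 that were lower in both libraries and for 1 of the other 9. Without the motif, the genes lower in both libraries ran from Sdf2l1 (-0.37) and Creb3l2 (-0.33) to Pdia3 (-0.10). The remaining genes without it ran from Herpud1 (-0.24) to Sec61b (0.52). The values of genes with and without the motif thus overlapped, and a link between motif and difference was not tested. A match is a description of these letters and not evidence that the site was used.

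**Figure D3:**
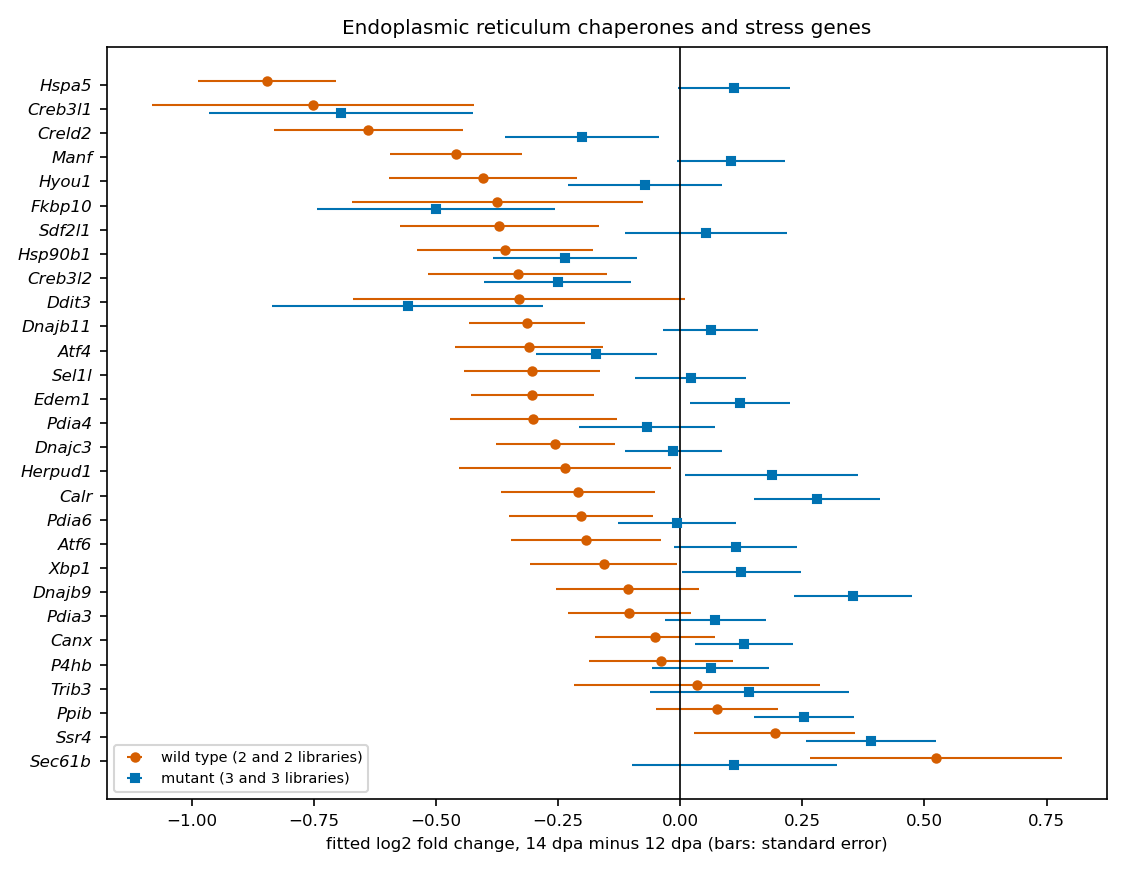
Fitted log2 fold change from 12 to 14 dpa with its standard error for the 29 tested endoplasmic reticulum genes, in wild type (circles) and mutant (squares) tissue. On TMM factors 25 of 29 fitted values lie below 0 in wild type and 11 of 29 in the mutant.

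Cytosolic ribosomal proteins, the structural proteins of the ribosome, were higher in both 14 dpa libraries for 44 of 88 tested members and lower in both for 1, with none past the edgeR test. Their median log2 fold change was 0.26, and as low as -0.10 on TPM, still above that of all genes. Leaving out a wild type library moved it to between 0.07, without the second 12 dpa library, and 0.48, without the first. Rpl12 had 395 and 285 CPM at 12 dpa and 531 and 447 CPM at 14 dpa, and Rps21 had 162 and 104 CPM and then 225 and 179 CPM. For both genes the 12 dpa libraries lay further from each other than the nearest libraries of the 2 days, and the log2 fold changes were 0.52 (SE 0.19) for Rpl12 and 0.60 (SE 0.24) for Rps21. Rpl29, a ribosomal protein of the large subunit, was the member lower in both, from 312 and 291 CPM to 84.8 and 93.3 CPM. Its log2 fold change of -1.76 (SE 0.34) had an edgeR adjusted p of 0.533, DESeq2 called it, and it passed with the 4 wild type libraries fitted alone. Reads of ribosomal protein genes can be shared with their many pseudogenes, so single values of this family are uncertain.

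Replication-dependent histones, whose messages are made in S phase and mostly lack a poly(A) tail, were higher in both 14 dpa libraries for 38 of 65 tested members and lower in both for 2. Their median log2 fold change was 0.55, and 0 members passed. Hist1h2ai had 11.3 and 8.33 CPM at 12 dpa and 20.4 and 17.5 CPM at 14 dpa, and Hist1h2bn had 4.17 and 4.80 CPM and then 8.39 and 11.5 CPM. The days did not overlap for either, with log2 fold changes of 0.94 (SE 0.31) and 1.15 (SE 0.44). Genes of the cell cycle and DNA replication did not follow them, since 7 of 52 were higher and 6 lower in both libraries and their median was -0.04, with -0.23 to 0.10 on leaving out a wild type library. Mki67, a marker of cycling cells, had 139 and 260 CPM at 12 dpa and 97.6 and 163 CPM at 14 dpa, so its days overlapped. Top2a, a topoisomerase of dividing cells, had 81.3 and 125 CPM and then 78.1 and 122 CPM, with a wider gap within a day than between days. Cdc6, which licenses replication origins, had the smallest p of the list, with 3.20 and 3.92 CPM and then 1.94 and 2.44 CPM. Small noncoding RNA, which libraries of total RNA also capture, took 9.34% and 7.80% of TPM at 12 dpa and 11.3% and 11.5% at 14 dpa, and its part in the histone difference was not tested.

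Hard keratins and keratin-associated proteins of the nail were lower in both 14 dpa libraries for most of their members, with a wide gap between the 12 dpa libraries. Of 14 nail and hair keratins, 11 were lower and 0 higher in both, with a median log2 fold change of -0.91, and of 45 keratin-associated proteins 34 were lower and 1 higher, with a median of -1.07. None passed the edgeR test, and no nail keratin had an unadjusted p under 0.05. Krt83, a hard keratin, had 6248 and 13254 CPM at 12 dpa and 4509 and 5842 CPM at 14 dpa. Krtap8-1 had 1565 and 3190 CPM and then 960 and 854 CPM, and Krtap11-1 had 1047 and 2282 CPM and then 650 and 792 CPM. For each of the 3 genes the second 12 dpa library was further above the first than the first was above the 14 dpa libraries, and the log2 fold changes were -0.91 (SE 0.44), -1.39 (SE 0.64) and -1.21 (SE 0.48). Without the second 12 dpa library the median of the nail keratins was -0.38 and that of the keratin-associated proteins -0.60, which moves them by over 1.5 times. The list of nail differentiation factors differed from these: 5 of 21 were lower and 1 higher in both libraries, 15 overlapped, and their median of -0.20 was 0.00 without the second 12 dpa library. Foxn1, a transcription factor of nail and hair keratinocytes, had 104 and 254 CPM at 12 dpa and 69.9 and 104 CPM at 14 dpa, touching at 104 when rounded, with a log2 fold change of -1.04 (SE 0.40). Dlx3, a homeobox factor of nail and hair matrix, had 221 and 325 CPM and then 154 and 185 CPM (-0.69, SE 0.22). Rspo4, a Wnt agonist required for nail formation, went the other way at a low level, with 1.34 and 2.45 CPM and then 5.09 and 4.50 CPM (1.34, SE 0.49). Its days did not overlap, and its edgeR adjusted p was 0.578. In bulk tissue, fewer nail cells in a library and less of a message per cell cannot be told apart.

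In the epidermis, genes of basal and wound keratinocytes were lower in both 14 dpa libraries for 14 of 20 and higher for 1, Trp63, with a median log2 fold change of -0.31. Krt17, a keratin of activated keratinocytes, had 1181 and 1032 CPM at 12 dpa and 855 and 512 CPM at 14 dpa. Col17a1, a collagen of the hemidesmosome that anchors basal cells, had 4002 and 3746 CPM and then 2800 and 2575 CPM. Both were lower in each 14 dpa library, by -0.70 (SE 0.26) and -0.53 (SE 0.23) on the log2 scale. Trp63, the master regulator of stratified epithelium, had 367 and 368 CPM and then 393 and 512 CPM. Among 33 suprabasal and cornified genes, 11 were lower and 1 was higher in both libraries, with a median log2 fold change of -0.33. Leaving out a wild type library moved that median to between -0.53 and -0.04. The abundant Krt10 overlapped, with 18829 and 10353 CPM at 12 dpa and 21395 and 16568 CPM at 14 dpa. The chemokine Cxcl14, made by resting epithelium, had 330 and 312 CPM and then 200 and 207 CPM, a log2 fold change of -0.66 (SE 0.16, edgeR adjusted p = 0.533).

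Among fibroblast and bone genes the most abundant collagens overlapped between the days. Col1a1, the main collagen of bone and dermis, had 10403 and 12251 CPM at 12 dpa and 11070 and 6575 CPM at 14 dpa, and Col3a1 had 3823 and 4058 CPM and then 4098 and 3312 CPM. For both genes the days overlapped, and the second 14 dpa library was the lowest of the 4. Of 42 collagens 16 were lower and 4 higher in both 14 dpa libraries (median -0.17, and 0.06 on rescaled TPM), of 28 fibroblast genes 9 and 3 (median -0.10), and of 29 osteoblast and osteocyte genes 8 and 4 (median -0.21). Without the second 14 dpa library the medians of the fibroblast and osteoblast lists were 0.10 and 0.04, so their sign rested on it, as did that of the collagens (0.02 without it), and on rescaled TPM the fibroblast median was 0.11. Of 26 matrix metalloproteinases and inhibitors 9 were lower and 0 higher in both libraries, and 17 overlapped (median -0.13). Mmp14, a membrane-bound protease that opens matrix for cell movement, had 267 and 306 CPM and then 184 and 173 CPM. Timp2, an inhibitor that also works with Mmp14 to activate Mmp2, had 270 and 306 CPM and then 215 and 198 CPM. These 2 genes were lower in each 14 dpa library, with log2 fold changes of -0.68 (SE 0.24) and -0.48 (SE 0.21). Lrrc15, listed as a fibroblast marker, had 5957 and 12495 CPM at 12 dpa and 4240 and 4815 CPM at 14 dpa, so its levels in the 4 libraries stood in the same order as those of Krt83. The part of nail tissue in that value was not tested. Pdpn and Dcn, markers of stromal cells, were higher in both 14 dpa libraries, Pdpn with 3.05 and 3.82 CPM and then 10.2 and 4.68 CPM (1.11, SE 0.53).

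Cartilage genes were low, and their members moved in both directions. Col2a1, the main collagen of cartilage, had 2.25 and 1.16 CPM at 12 dpa and 6.74 and 4.44 CPM at 14 dpa. Col10a1, a collagen of hypertrophic chondrocytes that is also found in forming bone, had 31.9 and 22.2 CPM and then 91.8 and 44.9 CPM. Both were higher in each 14 dpa library, with log2 fold changes of 1.71 (SE 0.45, edgeR adjusted p = 0.533) and 1.34 (SE 0.47, edgeR adjusted p = 0.578). Of 18 chondrocyte genes 6 were higher and 8 lower in both libraries, and Sox9, the regulator of cartilage that is also made in nail and skin epithelium, was lower, with 261 and 207 CPM and then 187 and 190 CPM. Osteoclast genes were lower in both 14 dpa libraries for 14 of 17 and higher for 0, with a median log2 fold change of -0.46. As a share of all counts the list overlapped between the days, with 0.076% and 0.090% at 12 dpa and 0.052% and 0.077% at 14 dpa. Ctsk, the protease with which osteoclasts degrade bone matrix, had 157 and 155 CPM and then 111 and 116 CPM. Src, a kinase needed for the resorbing border of osteoclasts, had 64.7 and 69.8 CPM and then 47.1 and 50.4 CPM. Ctsk and Src did not overlap between the days, and Src had the smallest p of the list (-0.46, SE 0.18, edgeR adjusted p = 0.585). Atp6v0d2, a proton pump subunit of osteoclasts, had 8.20 and 9.91 CPM and then 3.62 and 4.49 CPM.

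**Figure D4:**
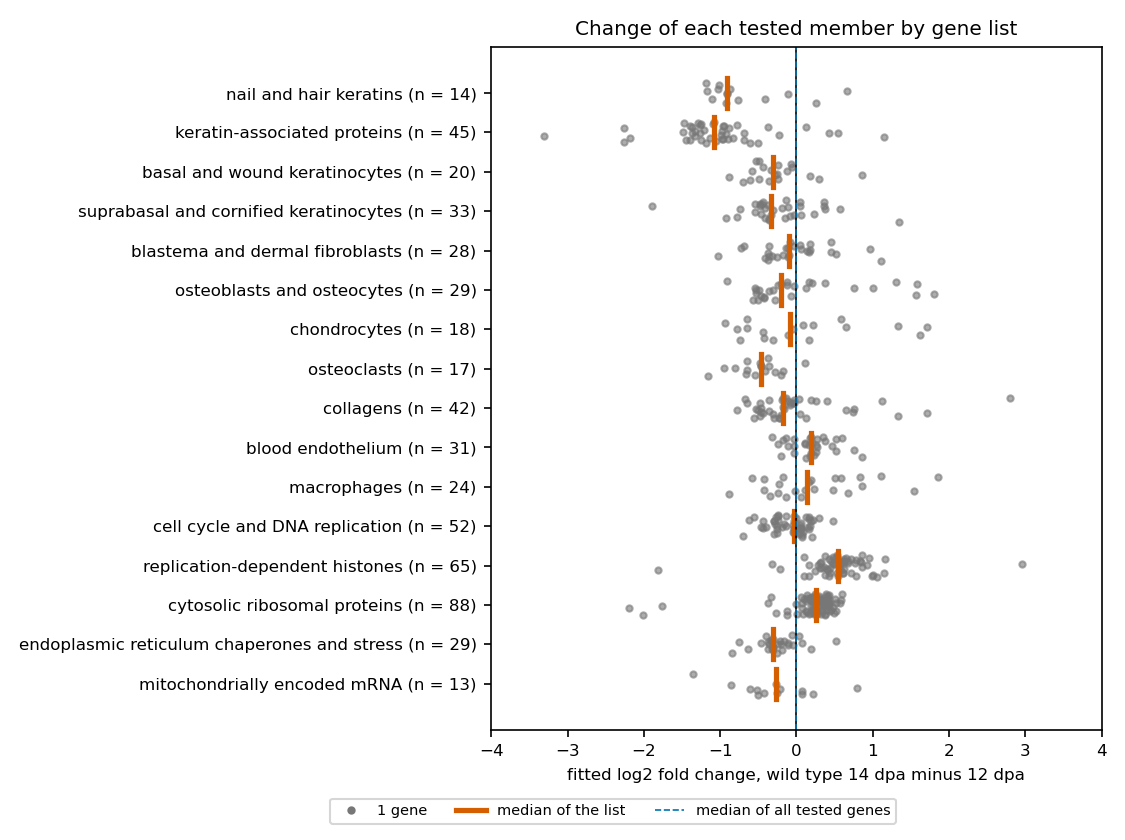
Fitted log2 fold change from 12 to 14 dpa in wild type tissue for each tested member (grey points) of 16 gene lists, with the median of each list (bar) and of all tested genes (dashed line), and with 2 points beyond the axis at -4 and 4 not drawn. Nail keratins and keratin-associated proteins lie lowest, with medians of -0.91 and -1.07, and histones highest, with a median of 0.55.

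Of 31 blood endothelial genes 12 were higher and 3 lower in both 14 dpa libraries, with a median log2 fold change of 0.19 that was as low as -0.18 on TPM. It was 0.05 without the first and 0.34 without the second 12 dpa library, and -0.26 with the mutant library of conflicting genotype tag placed in wild type. Vwf, a clotting factor stored in endothelium, had 10.9 and 18.3 CPM at 12 dpa and 27.8 and 25.3 CPM at 14 dpa. Cldn5, a tight junction protein of endothelium, had 3.72 and 3.82 CPM and then 5.50 and 5.28 CPM, and Clec14a, an endothelial lectin, had 9.93 and 12.9 CPM and then 17.3 and 21 CPM. The days did not overlap for these 3 genes, yet none had an unadjusted p under 0.05, and the abundant marker Cdh5 overlapped, with 46.1 and 59.2 CPM and then 56.7 and 46.6 CPM. In smooth muscle, Myh11, its myosin, had 3.96 and 3.73 CPM and then 8.69 and 7.48 CPM, while Smtn, a cytoskeletal protein of contractile cells, had 87.1 and 113 CPM and then 65.0 and 65.8 CPM. These were opposite differences, of 1.07 (SE 0.40) and -0.61 (SE 0.16).

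Of all counts, macrophage genes took 0.0937% to 0.109% in the 4 libraries, and mast cell and neutrophil genes took far less. Of 11 mast cell genes 8 passed the count filter, and all 8 were higher in both 14 dpa libraries, with a median log2 fold change of 1.72. Genes this low can pass the filter through the libraries where they are high, so this count is no support for a difference. None of the 8 had an unadjusted p under 0.05 in the edgeR test, and the list took at most 0.00139% of counts. That median was 0.91 without the first and 3.02 without the second 12 dpa library. Its protease Cpa3 had 0.123 and 0.463 CPM at 12 dpa and 1.04 and 1.03 CPM at 14 dpa, and Hdc, which makes histamine, had 0.259 and 0.626 CPM and then 0.715 and 2.95 CPM. Of 17 neutrophil genes 11 passed the filter, with the same limit, and 3 of these had no count on 1 of the days. Of the 11, 5 were higher and 1 lower in both 14 dpa libraries, with a median of 1.69 that was as low as -0.44 on TPM. The list took 0.00355% and 0.00299% of counts at 12 dpa and 0.00251% and 0.00457% at 14 dpa, so the days overlapped. Among its granule genes, Camp, like Ltf, had no count at 12 dpa and 0.131 and 0.413 CPM at 14 dpa, at least 14.5-fold higher against the same floor. The neutrophil calprotectin subunit S100a8, which stressed keratinocytes also make, went the other way, with 10.1 and 7.83 CPM and then 3.09 and 6.28 CPM (-0.93, SE 0.39). Among macrophage genes 7 of 24 were higher and 5 lower in both libraries, and their median of 0.13 was -0.21 without the first 14 dpa library. Apoe, a lipid carrier, had 77.5 and 93.6 CPM and then 99.8 and 138 CPM (0.48, SE 0.19), while Cd68, a lysosomal marker shared with osteoclasts, had 13.5 and 23.5 CPM and then 10.2 and 9.77 CPM (-0.89, SE 0.44). Of 27 inflammatory cytokines and chemokines 6 were higher and 9 lower in both libraries, and 12 overlapped, with a median of 0.25 that was -0.28 without the first and -0.04 without the second 14 dpa library. Among them Il1a, an alarm signal of keratinocytes, and Lif were lower, Il1a with 10.03 and 11.5 CPM and then 7 and 6.92 CPM (-0.63, SE 0.17). Interferon response genes were lower in both for 6 of 28 with a median of -0.64, and without the first 12 dpa library that median was 0.11.

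For the Wnt, BMP and FGF lists the medians were -0.01, -0.05 and -0.02, with members on both sides, and for the Hedgehog and insulin-like growth factor lists they were -0.10 and -0.21. For the Wnt list, 8 of 61 were higher and 13 lower in both 14 dpa libraries. Ror1, a Wnt receptor, had 15.1 and 19.7 CPM at 12 dpa and 28.3 and 26.1 CPM at 14 dpa (0.65, SE 0.20), and Porcn, the enzyme that lipidates Wnt proteins for secretion, had 9.71 and 10.9 CPM and then 8.14 and 7.41 CPM (-0.41, SE 0.14). The days were apart for both, in opposite directions. Of 45 BMP and TGF-beta genes 8 were higher and 14 lower. Grem1, a secreted BMP antagonist, had 2.71 and 1.69 CPM and then 0.861 and 0.825 CPM, and Smad7, an intracellular inhibitor of the pathway, had 78.1 and 91.2 CPM and then 64.2 and 61.3 CPM. These 2 inhibitors were lower in each 14 dpa library, with log2 fold changes of -1.38 (SE 0.38) and -0.43 (SE 0.15), and the activin receptor Acvr2a was higher (0.33, SE 0.11). In the FGF list, with 7 of 29 higher and 8 lower, the ligand Fgf22 had 26.4 and 31.4 CPM and then 18.6 and 16.1 CPM (-0.74, SE 0.31), and the feedback inhibitor Spry4 was at 7.58 and 6.61 CPM and then 5.51 and 3.63 CPM. Of 15 Hedgehog genes 4 were lower and 1 higher, and of 18 genes of insulin-like growth factors 7 were lower and 3 higher. Ptch1, receptor and target of Hedgehog signalling, had 53.4 and 51.4 CPM and then 39.4 and 40.0 CPM (-0.40, SE 0.20). Pappa, a protease that frees insulin-like growth factors, had 35.4 and 42.5 CPM and then 26.2 and 25.5 CPM (-0.59, SE 0.22). Gdnf, a growth factor for neurons, had 7.86 and 5.8 CPM and then 3.47 and 3.57 CPM (-0.96, SE 0.31). Each of these pairs was lower at 14 dpa without overlap, and 0 genes of the lists passed the test.

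Genes of glycolysis and the hypoxia response were lower in both 14 dpa libraries for 12 of 34 and higher for 1, with a median log2 fold change of -0.10 that was 0.14 on rescaled TPM. Vegfa, the vessel growth factor induced by low oxygen, had 38.3 and 58.2 CPM at 12 dpa and 26.1 and 29.8 CPM at 14 dpa. Adm, adrenomedullin, had 17.2 and 19.5 CPM and then 12.3 and 13.3 CPM. Both were lower without overlap, with log2 fold changes of -0.79 (SE 0.25) and -0.52 (SE 0.22), while the enzyme Gapdh overlapped, with 485 and 554 CPM and then 515 and 465 CPM. The immediate early gene Fos, a subunit of AP-1, had 11.7 and 7.43 CPM and then 26.7 and 30.5 CPM (1.58, SE 0.64), whereas Jund and Ier3 were lower, at -0.46 (SE 0.18) and -0.67 (SE 0.24). Of 13 mitochondrially encoded mRNAs 8 were lower and 2 higher in both libraries, with a median of -0.27. The subunits of complex I differed among themselves: mt-Nd3 had 273 and 249 CPM and then 463 and 438 CPM, and mt-Nd4 had 578 and 564 CPM and then 365 and 381 CPM. Their log2 fold changes were 0.79 (SE 0.18) and -0.61 (SE 0.21), although both messages are cut from the same primary transcript.

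The change between the days was then compared with that in mutant tissue. For the difference between wild type and mutant change, 0 of 20216 genes (0.0%) passed the edgeR test, 1763 (8.72%) had an unadjusted p under 0.05, the smallest adjusted p was 0.208, and DESeq2 called 48. In the mutant itself, with 3 libraries a day, 7 genes (0.0346%) passed and 3803 (18.8%) had an unadjusted p under 0.05. The 5 smallest p-values of the difference among protein-coding genes were those of Cxcl14 (-1.37, SE 0.20), Epcam (-1.38, SE 0.23), Bhlhe40 (-0.87, SE 0.15), Serpina9 (-2.17, SE 0.38) and Palb2 (1.87, SE 0.33), each with an edgeR adjusted p of 0.544. Cxcl14 in the mutant had 182, 204 and 189 CPM at 12 dpa and 264, 313 and 365 CPM at 14 dpa. Epcam there had 74.0, 70.7 and 85.3 CPM and then 121, 111 and 94.0 CPM. Both were higher in every library titled mutant at 14 dpa and lower in both wild type libraries. The first mutant library at 14 dpa carries a wild type genotype tag, and with it placed in wild type the wild type log2 fold change of Epcam was 0.171 and 522 genes had an unadjusted p under 0.05 for the difference, against 1473 with it left out. Serpina9 had 82.1 and 109 CPM and then 43.8 and 36.9 CPM in wild type, and 76.2, 102 and 48.9 CPM and then 145, 134 and 154 CPM in the mutant. Hspa5 in the mutant had 241, 235 and 260 CPM and then 282, 231 and 282 CPM, so the wild type libraries at 12 dpa were the highest of all, and the difference in change was -0.96 (SE 0.18, edgeR adjusted p = 0.544). For 26 of the 29 endoplasmic reticulum genes the wild type change lay below the mutant change, against 47.7% of all tested genes. Of these 29 genes, 6 had an unadjusted edgeR p under 0.05 for the difference. The wild type values in this count are those described above as mostly lower, so the count is no separate support. Nail keratins had a median of -2.15 in the mutant beside -0.91 in wild type, and cell cycle genes -0.90 beside -0.04. The mutant medians include the library of conflicting tag. Without the second 12 dpa library the wild type median of the nail keratins was -0.38. Nail keratins took 0.326% to 1.19% of counts in the mutant libraries and 2.65% to 6.18% in the wild type libraries. Col10a1 had at most 2.48 CPM in any mutant library and rose there (log2 fold change 6.44, edgeR adjusted p = 0.0426), so its difference in change of -5.10 (SE 0.93) came from a gene near 0 at 12 dpa.

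The smallest p of all in wild type belonged to ENSMUSG00000119873, a gene with no name in the tables used. It had 0.0818 and 0 CPM at 12 dpa and 19.8 and 16.4 CPM at 14 dpa in wild type, a log2 fold change of 8.74 (SE 0.882, edgeR adjusted p = 0.0934). In the mutant it had at most 0.0129 CPM at 12 dpa and 7.71, 19 and 7.82 CPM at 14 dpa, where it passed the test (edgeR adjusted p = 0.0153). All 5 libraries of 14 dpa were thus above all 5 of 12 dpa, and the test of a difference between genotypes gave an edgeR adjusted p of 0.732.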

How the data were processed

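RNA-seq was analysed in 10 libraries of total RNA prepared with a stranded Illumina kit. The authors deposited RSEM expected counts and TPM per gene for each library, and a table of protein-coding genes. Per the submitters' processing notes, FastQC, STAR 2.7.8a and RSEM 1.3.0 were used with GRCm39; further settings are not given in the sources used here. Of the deposited expected counts 13.9% were not whole, and all were rounded.

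Samples were grouped by title. Where titles and other labels conflict (the numbers of the wild type pair at 14 dpa, and a wild type genotype tag on mutant replicate 1 at 14 dpa), titles were followed. Low counts were removed with filterByExpr (at least 10 counts, 15 in total), and the rest scaled by TMM and tested with edgeR 4.0.16 (quasi-likelihood, robust, prior count 0.125) in R 4.3.3, with all 10 libraries in 1 fit, so that the spread was pooled over 4 groups (6 residual degrees of freedom). P-values were adjusted by Benjamini-Hochberg over 20216 genes, with a threshold of 0.05. CPM values are on TMM-scaled library sizes. Each standard error (SE) of an edgeR log2 fold change was derived from its test, as the absolute log2 fold change over the square root of the F statistic. It is therefore approximate, above all for fold changes near 0 and genes without counts on 1 day. Alternatives used DESeq2 1.42.0 and limma 3.58.1, other scalings and filters, TPM scales, a sex covariate, the label conflict, replicate blocks and leaving out each wild type library; TPM rescaled to protein-coding genes was added after seeing the data. The script was tested on simulated data.

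Named genes were the 25 of highest mean TPM, the 10 smallest p-values in each direction, per list the 3 smallest p-values and the 3 highest TPM, and the 5 smallest p-values of the difference between genotypes. Canx, Cdh5, Dnajc3, Hsp90b1, Pdgfra, Pdia6, Prrx1, Sec61b, Top2a, Trp63 and Tyr were chosen after their values were seen. The comparison, the members and the gene lists were chosen with earlier results of these data known. Promoter sequences are from RefSeq, GRCm38.p6, and gene coordinates in the authors' build were not used here. Deviations of same-numbered libraries correlated at 0.086 over all genes and 0.145 over autosomal genes, and no label pairs them. For genes with many counts, counting error is small at this depth and the number of libraries limits precision. For genes with few or no counts on a day, such as Ltf, Camp and ENSMUSG00000119873 at 12 dpa, counting error is not small.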

Additional observations from a re-analysis of the deposited data

Results flagged for a closer look

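Xist, which is transcribed from the inactive X chromosome, had 1292 expected counts in the first wild type 14 dpa library although that library had Y-linked counts. The other 5 libraries with Y-linked counts had 11 to 46, and libraries without them 56783 to 133462. This library was taken as male in the sex covariate, and its Xist level enters no other comparison above. Each library pooled 6 digits, and whether digits of both sexes were pooled was not tested.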

How the results depend on the processing

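With edgeR on all 10 libraries 0 genes passed in wild type, while DESeq2 called 77 (37 higher, 40 lower) and edgeR on the 4 wild type libraries called 8 (4 and 4). Limma called 2 (1 and 1) on log2(TPM + 1), 3 (1 and 2) on log2(TPM + 0.1) and 1 (1 higher) on rescaled TPM, edgeR with a sex covariate called 2 (1 and 1), and leaving out each wild type library in turn gave 0 to 4 (0 to 1 higher, 0 to 3 lower), with 4 without the second and 1 without the first 14 dpa library. No label pairs the libraries: the replicate block by title numbers called 0 genes, with 1326 at an unadjusted p under 0.05, and the replicate block by description numbers called 1 (1 higher, 0 lower). For the difference between genotypes, 0 in the edgeR fit became 48 (20 higher, 28 lower) with DESeq2, 1 (1 higher) without the filter, 2 (1 and 1) on log2(TPM + 1), 1 (1 higher) on rescaled TPM, 1 (1 higher) with the block by description numbers, and 0 to 3 (0 to 1 higher, 0 to 3 lower) on leaving out each wild type library, with 1 without the first and 3 without the second 14 dpa library. Of the members of the gene lists, 7 passed with DESeq2, 1 with wild type libraries only and 1 on rescaled TPM. The cause of these differences was not tested.

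Over 89 genes with a fold change in the text, 1718 of 1754 values under alternatives kept direction and side of the threshold, and 21 passed it, 20 of them with DESeq2 and Rpl29 also in the wild type fit alone. Direction reversed for 15: on log2(TPM + 1) and log2(TPM + 0.1), Spopl (-0.096 and -0.109), Acvr2a (-0.063 and -0.08) and Trp63 (-0.097 and -0.099); with the library of conflicting tag placed in wild type, Epcam (0.171), Bhlhe40 (0.028), S100a8 (0.143) and Canx (0.071); on rescaled TPM, Calr (0.013), Canx (0.138) and Pdia6 (0.023); and Canx with upper quartile factors (0.008) and without the first 14 dpa library (0.008, in a range of -0.092 to 0.008 on leaving out each wild type library). The cause was not tested. List medians moved by more than the spread in 173 of 879 values, and the list of T and NK cells gave none on rescaled TPM. With 2 libraries a day, small differences could not be resolved at the spread found (biological coefficient of variation 0.277).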
